A study of Equus caballus with 20 samples.

Results

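In pregnant mares 4 days after ovulation, the oviduct epithelium on the side of ovulation was compared with that of the opposite oviduct. The series asks how the early embryo affects gene expression, immune genes among them, in the mare's oviduct. The comparison used 10 of the 20 RNA sequencing libraries of the series: 5 pregnant ipsilateral libraries (PI1 to PI5) and 5 pregnant contralateral libraries (PC1 to PC5), matched by replicate number into 5 pairs. All mares were Warmbloods, and the labelled material was epithelial cells taken where the ampulla of the oviduct joins the isthmus. The other 10 libraries came from cyclic, non-pregnant mares at the same time, 5 ipsilateral (CI) and 5 contralateral (CC), and served only as a second set of side differences. The labels name no treatment, age or parity, and they do not say how pregnancy was established. They do not say either that a replicate number stands for 1 mare, so the pairing was checked in the data. Of 26740 listed features, 14692 exceeded 1 CPM of the column total in at least 5 of the 20 libraries and were tested. All differences are log2 values, ipsilateral minus contralateral within a pair, and a value below 0 means a lower level on the side of ovulation.

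After ovulation the oocyte enters the oviduct on its own side, where it is fertilized and the embryo begins to cleave, so the ipsilateral oviduct holds the embryo and the contralateral one does not. In the horse the early embryo stays in the oviduct for several days and secretes prostaglandin E2, on which its passage to the uterus depends, whereas unfertilized oocytes are usually retained. The oviduct epithelium consists of multiciliated cells, which move fluid and embryo, and secretory cells, which build the fluid around them. Both oviducts of a mare share the same circulation, while the ipsilateral one also lies beside the ovary that carries the new corpus luteum.

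The 10 libraries held 2795168 (PI1) to 10015464 (PC4) reads, and 3 reads, taken as the counting floor, corresponded to 1.75 (PC4) to 7.03 (PI1) normalized counts. The ipsilateral library was the shallower one in pairs 1, 4 and 5, with log2 ratios of reads of -1.05, -1.18 and -0.16, and in pairs 2 and 3 the ratios were 0.01 and 0.20. One feature without a symbol, ENSECAG00000014226, took 14.4, 8.13, 0.396, 27.8 and 1.83% of the reads in PI1 to PI5, against 9.75, 5.58, 5.44, 0.953 and 2.78% in PC1 to PC5. Of 46 marker genes of multiciliated cells 43 were in the file, and their summed level was 157628 to 209684 normalized counts in PI and 159135 to 207236 in PC. Of 19 markers of secretory cells 14 were in the file, with sums of 8082 to 9518 in PI and 7869 to 9094 in PC. OVGP1, the oviduct-specific glycoprotein that usually defines secretory cells, was near the counting floor, with 2.34, 2.92, 7.64, 5.03 and 15.4 normalized counts in PI1 to PI5, against 4.31, 3.77, 5.2, 3.51 and 3.33 in PC1 to PC5, and CRISP3 had no read in any of the 10 libraries. The label of an epithelium was thus borne out for the multiciliated markers, while the feature named OVGP1 held few reads. Whether reads of that gene fell on another feature was not tested. In the deviations of each library from its group mean, PI and PC libraries of the same number correlated at 0.53 to 0.70 in the 5 pairs, against -0.62 to 0.21 for different numbers.

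No single gene passed the test between the 2 sides. The genes with the smallest p had modest differences of 1 sign in all pairs, among them CACNA2D3, FOPNL and UPF3B with a higher level in PI and RPN1, GSTM3 and COX6A1 with a lower one. Groups of genes for protein glycosylation, respiration, protein breakdown and cell division had members mostly below 0, against 55.4% of all features. Pairs 4 and 5 lay farthest below 0 for the first 3 of these groups, and pair 2 for cell division. The lists of protein glycosylation and protein breakdown were drawn up after values had been seen. The direction of their members is thus a description of these data and no separate support. In the paired limma fit with Benjamini-Hochberg adjustment at 0.05, 0 of 14692 features passed (0%), and the smallest adjusted p was 0.292. At an unadjusted p under 0.05 there were 1308 features with a lower level in PI (8.9% of those tested) and 798 with a higher level (5.43%). That count of 2106 was 884 without pair 4 and 999 without pair 5. edgeR on the recovered reads called 0 as well, with 1966 at an unadjusted p under 0.05, and DESeq2 called 2, CACNA2D3 and KBTBD12, among the 3014 features to which it gave an adjusted p (0.0664%). The mean difference was below 0 in 8141 features (55.4%). The sign was the same in all 5 pairs in 1112 features that were lower in PI (7.57%) and 717 that were higher (4.88%). The median over all features was -0.03 on the log2 scale. For 1 gene taken alone, the 32 sign arrangements of 5 pairs allow no 2-sided exact p below 0.0625, so the pooled spread of the limma fit carries each value that follows.

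Among the 10 genes with the smallest p and a higher level in PI were a calcium channel subunit, a centrosome protein and RNA-processing factors, and none of the 10 passed (limma, adjusted p = 0.292 for each). CACNA2D3, an auxiliary subunit of voltage-gated calcium channels, had 1725, 1162, 1129, 830.4 and 2406 normalized counts in PI1 to PI5, against 1249, 686, 857, 663 and 1093 in PC1 to PC5. The ipsilateral library was the higher one in each of the 5 pairs, although the groups overlapped. The mean log2 difference was 0.62 ± 0.12 (SE of the limma fit, n = 5 pairs). Such an SE, given after the later log2 differences too, pools spread over features and is not that of the pair values alone. The adjusted p of CACNA2D3 was 0.00338 in DESeq2. KBTBD12, a protein with kelch repeats and a BTB domain, had 837, 539, 721, 866 and 1184 normalized counts in PI1 to PI5, against 704, 433, 534, 379 and 644 in PC1 to PC5. It was higher in PI in every pair, most in pairs 4 and 5, with a mean log2 difference of 0.61 ± 0.13 and an adjusted p of 0.036 in DESeq2.

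FOPNL, a centrosomal protein needed for the formation of cilia, had 72.6, 48.6, 64.5, 53.7 and 68.5 normalized counts in PI1 to PI5, against 40.9, 27.3, 39.6, 35.7 and 41.02 in PC1 to PC5. Here the groups did not overlap, which held for 7 features in this direction (0.0476%) and for 13 in the other (0.0885%), and the log2 differences of the 5 pairs were close to each other, from 0.55 to 0.78. UPF3B, a factor of nonsense-mediated mRNA decay, had 176, 81.7, 121, 126 and 151 normalized counts in PI1 to PI5, against 123, 55.6, 87.4, 76.6 and 103 in PC1 to PC5. Its log2 differences ran from 0.46 to 0.69, and among these 10 genes only FOPNL and UPF3B spread so little over the pairs, although the pairs themselves stood at different levels. ADAMTS6, a secreted metalloprotease, had a mean log2 difference of 0.71 ± 0.15, with 0.40 to 0.89 over the pairs. The other 5 genes were FAM76B, STK39 (a kinase that controls cation-chloride cotransporters), PUS10 (a pseudouridine synthase), ZC3H8 and the zinc finger protein ZNF711, with mean log2 differences of 0.49, 0.47, 0.56, 0.56 and 0.45.

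The 10 genes with the smallest p and a lower level in PI included subunits of enzyme complexes of the secretory pathway, mitochondria and nucleus, and none of them passed either (limma, adjusted p = 0.292 for each). TMEM179B, a membrane protein, had 157, 258, 219, 216 and 145 normalized counts in PI1 to PI5, against 181, 345, 352, 390.5 and 247 in PC1 to PC5, a mean log2 difference of -0.58 ± 0.12. RPN1, a subunit of the oligosaccharyltransferase that attaches sugar chains to newly made proteins, had 532, 1306, 1123, 913 and 712 normalized counts in PI1 to PI5, against 659, 1645, 1316, 1703 and 1350.2 in PC1 to PC5. RPN1 was lower in PI in every pair, by -0.31, -0.33, -0.23, -0.90 and -0.92 in pairs 1 to 5 on the log2 scale, and the values of pairs 4 and 5 stood apart from the other 3. GSTM3, a glutathione S-transferase, had 58.6, 1001, 533, 459.6 and 159 normalized counts in PI1 to PI5, against 109, 1250.0, 582, 832 and 445 in PC1 to PC5. Its level differed more between pairs than between sides, the mean log2 difference was -0.72 ± 0.16, and among the alternatives run it passed only in the scaling to CPM without TMM (adjusted p = 0.0283 in limma).

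LPCAT2, an acyltransferase that makes platelet-activating factor, had a mean log2 difference of -0.60 ± 0.12 and a value of -0.26 in the pair nearest to 0. CYBA, a membrane subunit of superoxide-producing NADPH oxidases, stood at 246 ± 65.2 normalized counts in PI and 342 ± 94.97 in PC (SD, n = 5), a log2 difference of -0.47 ± 0.10. POLR2G, a subunit of RNA polymerase II, gave -0.63 ± 0.13, and COX6A1, a subunit of cytochrome c oxidase, -0.59 ± 0.13. The remaining 3 were CTSV, a lysosomal cysteine protease, ATP6AP1, an accessory subunit of the proton pump that acidifies vesicles, and ACSS2, which makes acetyl-CoA from acetate, with -0.49, -0.46 and -0.52. For each of these 7 genes the ipsilateral library was the lower one in all 5 pairs.

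**Figure D1:**
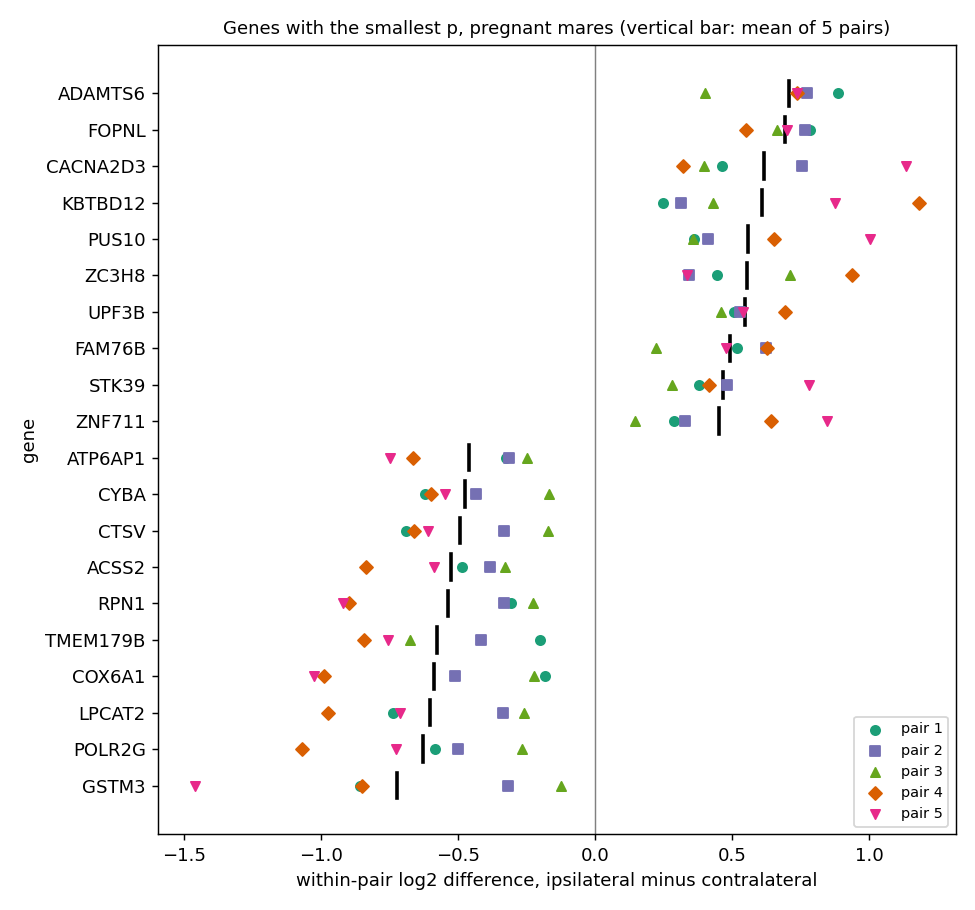
Within-pair log2 differences (ipsilateral minus contralateral, x axis) of the 10 higher and 10 lower genes with the smallest p, 1 point per pair and a bar at the mean of the 5 pairs. All points of a gene lie on 1 side of 0, and none of the genes passed (adjusted p = 0.292 in limma).

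The largest mean differences among genes with 1 sign in all 5 pairs and a mean of at least 5 CPM were carried mostly by pairs 4 and 5 on the higher side. DNAH17, a heavy chain of axonemal dynein, had 39.8, 27.2, 41.6, 65.4 and 50.8 normalized counts in PI1 to PI5, against 27.99, 21.7, 24.98, 13.4 and 18.8 in PC1 to PC5. Its log2 differences were 0.47, 0.29, 0.67, 2.05 and 1.3 in pairs 1 to 5, with a mean of 0.96 ± 0.26 (adjusted p = 0.292 in limma). CPT1B, which carries fatty acids into mitochondria, gave 0.29, 0.04, 0.23, 1.86 and 1.3, and the WD-repeat protein WDR49 0.21, 0.07, 0.21, 1.75 and 1.39, so that both were near 0 in pair 2 and above 1 in pairs 4 and 5. TSSK3, a serine kinase best known from testis, and ADAM20, of the family of membrane-bound metalloproteases, had means of 0.74 ± 0.23 and 0.71 ± 0.21.

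On the lower side the largest differences came from different pairs. IL17RD, a membrane protein that restrains fibroblast growth factor signalling, had 2.34, 38.9, 24.6, 41.9 and 22.4 normalized counts in PI1 to PI5, against 32.3, 49.02, 45.8, 45.01 and 36.6 in PC1 to PC5, and PI1 was below the floor of 7.03 normalized counts for that library. CXCL10, an interferon-induced chemokine that attracts T cells, had 44.5, 35, 115, 161 and 9.45 normalized counts in PI1 to PI5, against 45.2, 36.8, 248, 244 and 73.2 in PC1 to PC5. CXCL10 was nearly equal on both sides in pairs 1 and 2 and lowest in PI5, and its mean log2 difference was -0.87 ± 0.30 (adjusted p = 0.292 in limma). OSTC, a further oligosaccharyltransferase subunit, gave -1.83, -0.51, -0.16, -0.72 and -0.69 over the pairs, and CDC6, which licenses DNA replication, -0.78, -0.44, -0.30, -0.79 and -1.55. RPS13, a protein of the small ribosomal subunit with likely near-identical copies that could share reads, gave -0.65, -0.04, -0.08, -1.49 and -1.71.

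**Figure D2:**
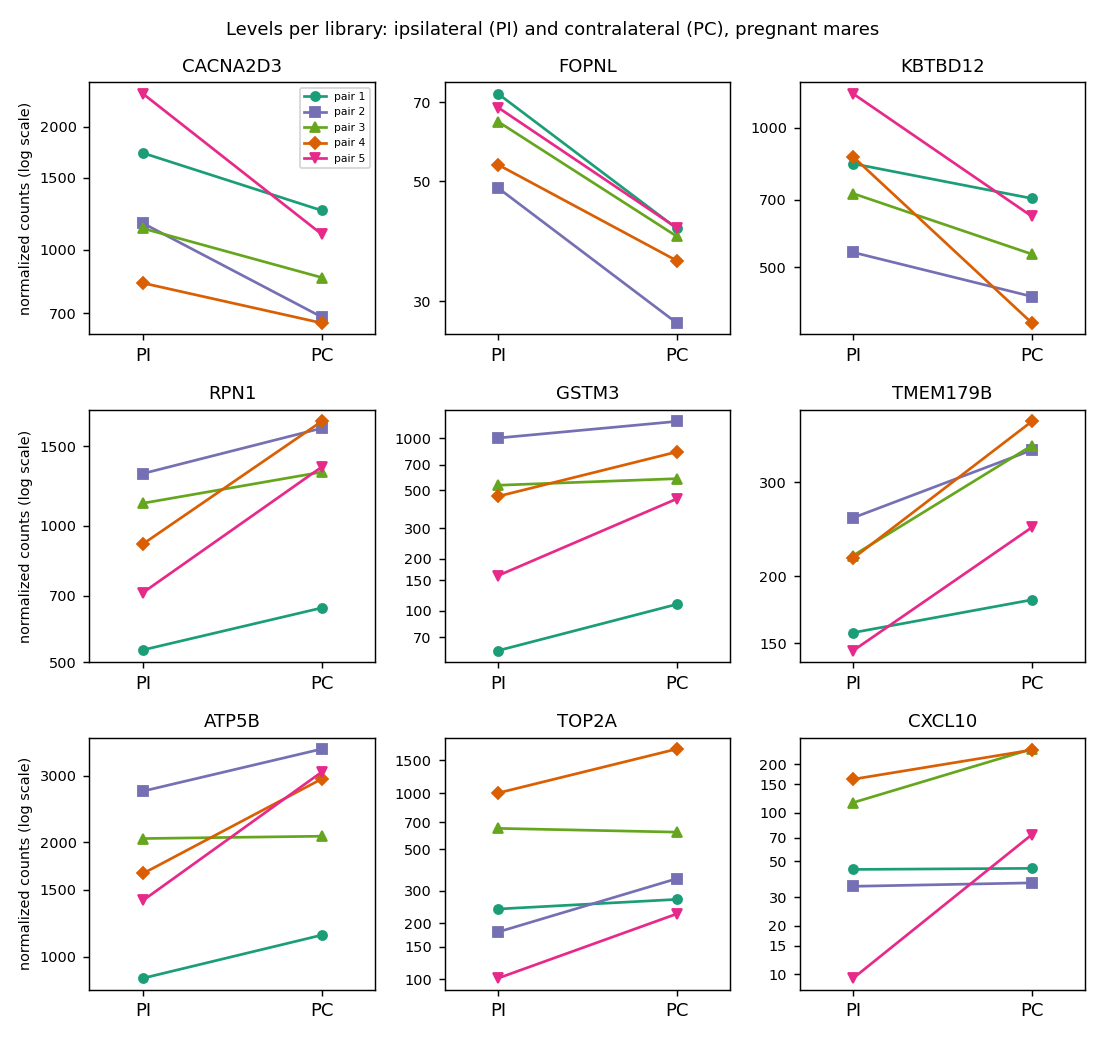
Normalized counts (log scale) of 9 genes in the ipsilateral (PI, left) and contralateral (PC, right) library of each pair, joined by a line. FOPNL has no overlap between the sides, while for RPN1, GSTM3 and ATP5B the pairs differ from each other by more than the sides do.

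Genes of protein glycosylation in the endoplasmic reticulum were lower in PI in every member kept. All 11 kept subunits of the oligosaccharyltransferase had a mean difference below 0, against 55.4% of all features, and 8 were lower in all 5 pairs, against 7.57%. The median over members was -0.42, with -0.19, -0.19, -0.14, -0.85 and -0.76 in pairs 1 to 5. RPN2, the partner of RPN1, stood at 815 ± 291 normalized counts in PI and 1199 ± 472 in PC (SD, n = 5), a log2 difference of -0.55 ± 0.13, and DDOST at 543 ± 212 normalized counts in PI and 784 ± 293 in PC, a difference of -0.53 ± 0.12. None of the 11 passed. This list was drawn up after values had been seen, as were those of the translocon, chaperonin, lysosomal hydrolases, vacuolar ATPase, proteasome, mitochondrially encoded genes, tubulins, RNA polymerase II, dynein heavy chains and name-based features. The mean log2 level of the 11 members was 8.49 in PI4 and 8.10 in PI5, against 9.34 in PC4 and 8.82 in PC5, and PI1 and PC1 stood at 7.71 and 8.06. Over the pairs the level ranged from 7.71 (PI1) to 8.91 (PI2) in PI and from 8.06 (PC1) to 9.34 (PC4) in PC. These full ranges were wider than the side differences of pairs 4 and 5. The paired fit takes out such differences in level between pairs. In bulk epithelium fewer cells of a type and less RNA per cell cannot be told apart.

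The neighbouring steps of the secretory pathway ran the same way with smaller values. Of 16 kept genes of the translocon, which threads new proteins into the endoplasmic reticulum, and of signal peptidase, 15 were below 0 and 2 were lower in all 5 pairs, with a median of -0.27. SSR1 and SEC61A1 gave -0.37 ± 0.11 and -0.29 ± 0.10, SSR4 -0.38 ± 0.14, and SEC61A2 ran against the list at 0.05 ± 0.19. Of 22 genes of folding and stress in the endoplasmic reticulum 19 were below 0 and 7 were lower in all 5 pairs, with a median of -0.26. The members with the smallest p were the chaperone HYOU1, at -0.35 ± 0.09, the transcription factor XBP1, at -0.30 ± 0.08, and calreticulin, CALR, at -0.36 ± 0.12. The 3 members above 0 were ATF4, DDIT3 and TRIB3, all of the integrated stress response, at 0.04, 0.02 and 0.08, and ATF4 lay within 0.0031 to 0.08 over the pairs.

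Cytosolic chaperones and ribosomal proteins were lower in PI mainly in pairs 4 and 5. All 8 subunits of the chaperonin TRiC, which folds actin and tubulin, were below 0, with a median of -0.32 and pair values of -0.24, -0.07, 0.03, -0.54 and -0.76. CCT5, CCT3 and CCT8 gave -0.39, -0.36 and -0.35. Of 19 heat shock genes 14 were below 0, with a median of -0.15, led by HSP90AA1 at -0.46 ± 0.13, HSP90AB1 at -0.45 ± 0.12 and HSPA8 at -0.41 ± 0.12. All 32 kept ribosomal protein genes were below 0, but 4 were lower in all 5 pairs, and the pair medians were -0.14, 0.08, 0.01, -0.37 and -0.90. RPS14 and RPS2 gave -0.46 and -0.40, and such genes often have near-identical copies between which reads can be split.

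Genes of protein breakdown followed. Of 27 lysosomal hydrolases 26 were below 0 and 11 were lower in all 5 pairs, with a median of -0.32 and pair values of -0.23, -0.25, -0.10, -0.60 and -0.40. Besides CTSV these included the cathepsin CTSZ, at -0.44 ± 0.12, while CTSL, near the counting floor, was at 0.07 ± 0.29. All 16 kept subunits of the vacuolar ATPase were below 0 (median -0.28). ATP6V0B, in the membrane sector of that pump, stood at 110.2 ± 55.3 normalized counts in PI and 175 ± 65.4 in PC (SD, n = 5), a difference of -0.67 ± 0.16. ATP6V0D2 was unusual in its evenness, with 274, 623, 717, 438 and 802 normalized counts in PI1 to PI5, against 356, 830.5, 832, 548 and 996 in PC1 to PC5 and log2 differences of -0.41 to -0.21. All 28 kept proteasome subunits were below 0 and 9 were lower in all 5 pairs, with a median of -0.28 and with PSMD2 at -0.37 ± 0.10, PSMB3 at -0.45 ± 0.14 and PSMA5 at -0.51 ± 0.16.

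Nuclear genes of the respiratory chain lay below 0, and the genes that the mitochondrion itself encodes had a median near 0. All 30 kept nuclear members were below 0 and 9 were lower in all 5 pairs, with a median of -0.34 and pair values of -0.28, -0.29, 0.04, -0.57 and -0.68. ATP5B, the beta subunit of ATP synthase, had 879, 2730.3, 2049, 1657 and 1408 normalized counts in PI1 to PI5, against 1141, 3525, 2077, 2939.5 and 3065 in PC1 to PC5. Pair 3 was level, and pairs 4 and 5 gave -0.83 and -1.12, for a mean log2 difference of -0.54 ± 0.14 (adjusted p = 0.292 in limma). ATP5A1, the alpha subunit, gave -0.58 ± 0.15, and NDUFA1, a subunit of complex I, -0.60 ± 0.16. Of the 13 mitochondrially encoded genes 9 were above 0, with a median of 0.02 and pair values of 0.18, 0.07, -0.71, 0.36 and 0.11, so pair 3 alone was below 0. ND2, MT-CO3 and ND6 had log2 differences of 0.10 ± 0.15, -0.08 ± 0.13 and -0.09 ± 0.20. Of 23 genes of glycolysis and the hypoxia response 19 were below 0 (median -0.18), among them the glycolytic enzymes PGK1 at -0.34 ± 0.12, ENO1 at -0.33 ± 0.11 and PKM at -0.25 ± 0.10.

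All 23 kept antioxidant genes were below 0 and 8 were lower in all 5 pairs, with a median of -0.34 and pair values of -0.31, -0.08, -0.11, -0.42 and -0.66. Catalase, CAT, which breaks down hydrogen peroxide, had 710.0, 1583, 861, 804 and 779.6 normalized counts in PI1 to PI5, against 970.0, 1632, 1142, 1287 and 1469 in PC1 to PC5, a mean log2 difference of -0.50 ± 0.12. The thioredoxin reductase TXNRD1 stood at 702 ± 162 normalized counts in PI and 931 ± 248 in PC (SD, n = 5), a difference of -0.39 ± 0.10. Both were lower in PI in each pair, and neither passed (adjusted p = 0.292 in limma).

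Genes that shape the epithelial layer and its exchange with the fluid had medians below 0 as well. Of 29 kept genes of junctions and adhesion 25 were below 0 and 8 were lower in all 5 pairs, with a median of -0.19. Desmoglein 2, DSG2, gave -0.44 ± 0.12, E-cadherin, CDH1, -0.40 ± 0.12, and the tight junction protein CLDN7 -0.35 ± 0.11. Of 23 nutrient transporters 19 were below 0, with a median of -0.29 and pair values of -0.20, -0.25, -0.08, -0.32 and -0.22, so this list was not confined to pairs 4 and 5. SLC3A2, the heavy chain of several amino acid exchangers, had 361, 685, 427, 575 and 568 normalized counts in PI1 to PI5, against 427, 855, 570.4, 646 and 731 in PC1 to PC5, and its log2 differences lay between -0.42 and -0.17. SLC15A1, which imports small peptides, gave -2.09, -0.49, 0.18, -0.60 and -0.82 over the pairs, and SLC2A4, a glucose transporter at the counting floor, was higher in PI in 4 pairs (0.72 ± 0.29).

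Of 23 genes of ion and fluid transport 19 were below 0, with a median of -0.11. The sodium pump subunit ATP1B1 gave -0.25 ± 0.10, and SCNN1G, a sodium channel subunit at low level, ran against the list with 16.6 ± 8.88 normalized counts in PI and 7.37 ± 3.73 in PC (SD, n = 5). Of 29 genes of cholesterol and fatty acid synthesis 25 were below 0 (median -0.17), among them MSMO1 at -0.46 ± 0.16 and ACLY at -0.24 ± 0.09. Of 12 kept tubulin genes 10 were below 0, with a median of -0.33, and the alpha tubulins TUBA1B, TUBA1A and TUBA1C, which are near-identical in sequence, gave -0.73, -0.55 and -0.62. TUBA8 and TUBE1 were above 0 (0.36 and 0.04). All 11 kept subunits of RNA polymerase II were below 0 (median -0.30), including the largest subunit, POLR2A, at -0.32 ± 0.09, and POLR2J at -0.47 ± 0.13.

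**Figure D3:**
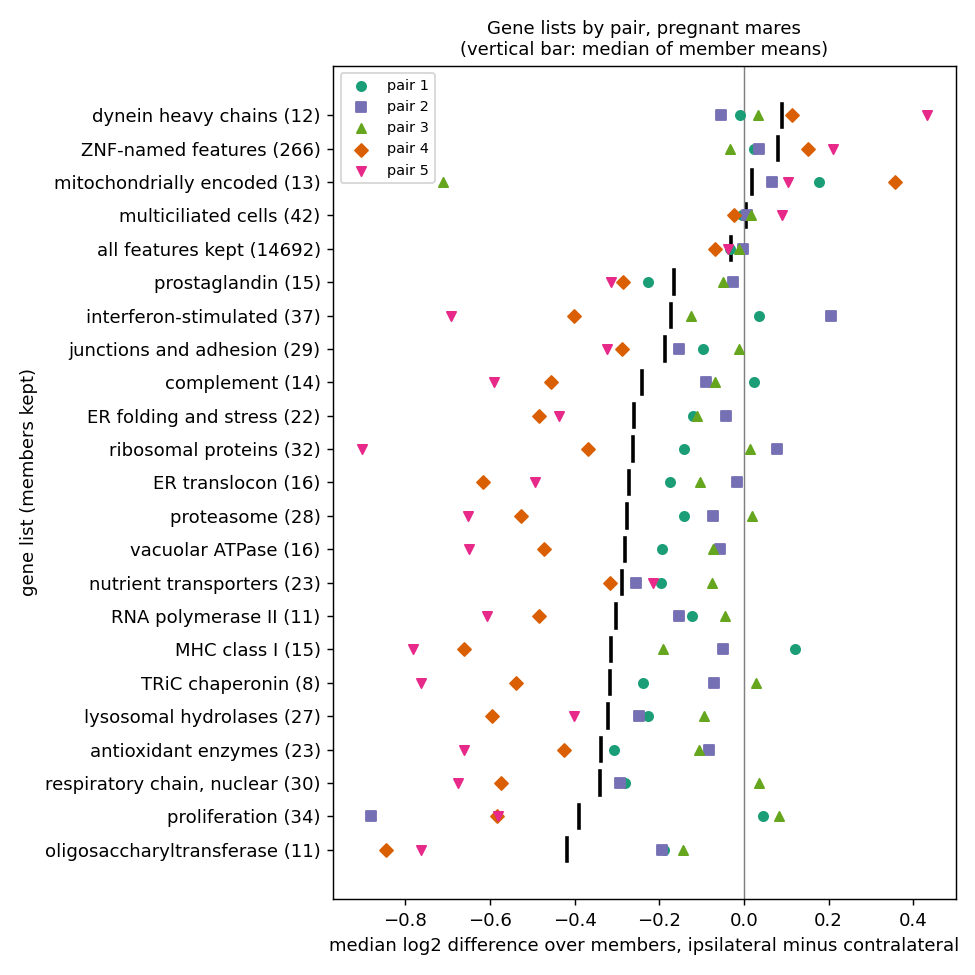
Median within-pair log2 difference (ipsilateral minus contralateral, x axis) over the members of each gene list, 1 point per pair and a bar at the median of the member means, with all kept features as a further row. Pairs 4 and 5 lie farthest below 0 in most of the lower lists, and for proliferation pair 2 lies lowest.

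Genes of cilia did not share this direction. Of 42 kept multiciliated markers 22 were above 0 and 20 below, with a median of 0.0049. Of these markers 8 were higher in all 5 pairs, against 4.88% of all features, and 3 were lower in all 5 pairs, against 7.57%. FOXJ1, the master regulator of motile cilia, stood at 4704 ± 1085 normalized counts in PI and 5016 ± 1009 in PC (SD, n = 5), a log2 difference of -0.10 ± 0.09. CCDC39, which sets the spacing of the inner dynein arms, gave 0.32 ± 0.10, GMNC, which starts the multiciliated programme, 0.49 ± 0.15, and the central apparatus protein CFAP54 0.38 ± 0.12, and each of the 3 was higher in PI in every pair. Of 12 dynein heavy chains 10 were above 0 and 3 were higher in all 5 pairs, with a median of 0.09. DNAH12 and DNAH7 gave 0.33 and 0.14, and DNAH5 and DNAH3 -0.04 and -0.0002.

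Features with zinc finger names were higher in PI more often than not, 178 of 266, against 44.6% of all features, and 25 were higher in all 5 pairs, against 4.88%. Their median was 0.08, and 0.01 without pairs 4 and 5. ZNF454 and ZNF182 gave 0.54 ± 0.15 and 0.42 ± 0.15. Of 108 features named for coiled-coil domains 68 were above 0 (median 0.08), with CCDC150 at 0.66, CCDC18 at 0.40 and CCDC117 below 0 at -0.31. Secretory cell markers were balanced, 5 of 11 above 0 with a median of -0.02. PAX8, the transcription factor that marks secretory cells, stood at 1851 ± 183 normalized counts in PI and 1687 ± 193 in PC (SD, n = 5), and PAX2, a related factor, at 727 ± 188 normalized counts in PI and 565 ± 125 in PC, with log2 differences of 0.14 ± 0.11 and 0.35 ± 0.11. EPCAM and MUC1, which lie on epithelial cell surfaces, gave -0.23 ± 0.11 and -0.27 ± 0.12.

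Hormone and prostaglandin genes, which bear on the embryo's passage, had list medians of -0.10 and -0.17. ESR1, the estrogen receptor, had 1068, 1933, 1901, 1959 and 2118 normalized counts in PI1 to PI5, against 1286, 1877, 2131, 2281 and 2397 in PC1 to PC5. It was lower in PI in 4 of 5 pairs, with a log2 difference of -0.16 ± 0.08 (adjusted p = 0.402 in limma), and PGR was not found under that symbol. Of 25 genes of steroid reception and response 14 were below 0 (56%), near the 55.4% of all features, with a median of -0.10. The 14 included HSD17B4 at -0.36 ± 0.11 and the receptor chaperone FKBP4 at -0.29 ± 0.09, while the transcription factor ZBTB16 was at 0.37 ± 0.15.

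Of 15 prostaglandin genes 13 were below 0 and 3 were lower in all 5 pairs (20%, against 7.57% of all features), with a median of -0.17. In cyclic mares 13 of the 15 were below 0 as well (median -0.11). PTGER4, a receptor for prostaglandin E2, had 286, 537, 429, 195 and 219.7 normalized counts in PI1 to PI5, against 374, 446, 444, 424 and 418 in PC1 to PC5. PC1 to PC5 lay within a narrow range, PI1, PI4 and PI5 lay below all of them, and the log2 difference was -0.44 ± 0.17 (adjusted p = 0.308 in limma). PTGER2, the other receptor examined, gave -0.08 ± 0.11. The synthases PTGS2 and PTGES were at 16.2 ± 8.35 normalized counts in PI and 14.7 ± 5.4 in PC and at 6.87 ± 4.37 normalized counts in PI and 5.02 ± 2.57 in PC (SD, n = 5), so PTGES lay within reach of the counting floor. AKR1B1, an aldose reductase that can make prostaglandin F2 alpha, was lower in PI in every pair (-0.38 ± 0.11), and PTGFRN, a membrane protein that binds the prostaglandin F receptor, gave -0.22 ± 0.09.

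Interferon-stimulated genes differed in direction between pairs. Of 37 kept members 32 had a mean below 0 and 4 were lower in all 5 pairs, with a median of -0.17 and pair values of 0.03, 0.21, -0.13, -0.40 and -0.69. MX1, an antiviral GTPase, had 5939.9, 1611, 4273, 4051 and 591 normalized counts in PI1 to PI5, against 6768, 1365, 4522, 5687 and 1028 in PC1 to PC5. ISG15, a ubiquitin-like antiviral protein, had 330.4, 33.1, 264, 381 and 22.4 normalized counts in PI1 to PI5, against 310.0, 21.7, 285, 461 and 46.6 in PC1 to PC5. For both genes pairs 2 and 5 were the low pairs on either side and pair 2 was higher in PI, and the log2 differences were -0.26 ± 0.13 and -0.14 ± 0.18. The RNA sensor DDX58 gave -0.36 ± 0.12, and the secreted glycoprotein LGALS3BP -0.39 ± 0.14.

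Of 15 genes of MHC class I presentation 14 were below 0 and 1 was lower in all 5 pairs, with pair medians of 0.12, -0.05, -0.19, -0.66 and -0.78. B2M, which pairs with every class I heavy chain, had 11111, 9240.0, 24412, 19858 and 2342 normalized counts in PI1 to PI5, against 11607, 8894, 23708, 34339 and 5642 in PC1 to PC5. B2M was level in pairs 1 to 3 and lower in PI4 and PI5, for a mean log2 difference of -0.40 ± 0.17 (adjusted p = 0.325 in limma). ERAP2, which trims peptides, and the chaperone CANX gave -0.48 ± 0.16 and -0.34 ± 0.12, and NLRC5, the activator of class I genes, was above 0 at 0.24 ± 0.17. Of 9 class II genes 7 were below 0 (median -0.12), with CD74, the invariant chain, at -0.12 ± 0.11, DRA at -0.36 ± 0.15, the protease CTSS at -0.34 ± 0.13 and the reductase IFI30 at -0.40 ± 0.16. The class II regulators RFX5 and RFXANK were above 0 (0.01 and 0.07), and MHC genes have close copies between which reads can be split.

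Of 14 complement genes 13 were below 0 (median -0.24). Clusterin, CLU, a secreted chaperone that restrains complement, stood at 15822 ± 6272 normalized counts in PI and 19169.7 ± 7286 in PC (SD, n = 5), a log2 difference of -0.28 ± 0.11. The anaphylatoxin receptor C3AR1 gave -0.66 ± 0.23, factor I, CFI, -0.24 ± 0.10, and C7 was above 0 at 0.05 ± 0.17. Of 20 cytokine and chemokine genes 13 were below 0 (median -0.08), with CXCL9, a relative of CXCL10, at -0.51 ± 0.21 and TNFSF13B, which sustains B cells, at -0.68 ± 0.32. Of 24 genes of pattern recognition and NF-kappaB signalling 14 were below 0 (58.3%), near the 55.4% of all features, with a median of -0.02. The 14 included the adaptor MYD88 at -0.52 ± 0.17, TLR3 at -0.25 ± 0.16 and NFKBIA at -0.16 ± 0.11. Of 8 antimicrobial and mucosal genes 6 were below 0, while MUC4 and WFDC2 were at 0.21 ± 0.10 and 0.11 ± 0.10.

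Proliferation genes lay below 0 in pairs 2, 4 and 5 and near 0 in pairs 1 and 3. Of 34 kept members 31 were below 0 and 6 were lower in all 5 pairs, with a median of -0.39 and pair values of 0.04, -0.88, 0.08, -0.58 and -0.58. Without pair 2 the median was -0.26. TOP2A, the topoisomerase of dividing cells, had 239, 179.9, 648, 1003 and 102 normalized counts in PI1 to PI5, against 269, 348, 618, 1728 and 225 in PC1 to PC5. Pairs differed more than sides, since pair 4 was highest and pair 5 lowest on both sides, and the log2 difference was -0.59 ± 0.16 (adjusted p = 0.292 in limma). The spindle motor KIF11 stood at 162 ± 153 normalized counts in PI and 236 ± 209 in PC (SD, n = 5), the replication helicase subunit MCM3 at 224 ± 104 normalized counts in PI and 361 ± 232 in PC and ANLN, a scaffold of the cleavage furrow, at 110.1 ± 81.7 normalized counts in PI and 158 ± 122 in PC, with log2 differences of -0.73 ± 0.18, -0.62 ± 0.15 and -0.56 ± 0.15. PLK1, CENPE and DLGAP5, which act in mitosis, were above 0 at 0.05, 0.03 and 0.12.

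Notch, WNT and growth factor lists had medians close to that of all features, and the median of matrix remodelling was lower. Of 20 Notch genes 13 were below 0 (median -0.05), with the protease ADAM10 at -0.31 ± 0.11, NOTCH2 at -0.23 ± 0.10 and the ligand DLL4 at -0.31 ± 0.14. Of 32 WNT genes 22 were below 0 (median -0.05), with the receptors FZD6 and FZD4 at -0.30 ± 0.13 and -0.17 ± 0.08 and the transcription factor LEF1 at 0.45 ± 0.20. Of 27 growth factor genes 15 were above 0 (median 0.01), with VEGFA at 0.29 ± 0.14, CTGF at 0.25 ± 0.12 and IGFBP2 at -0.36 ± 0.17. Of 27 genes of matrix remodelling 16 were below 0 (59.3%), near the 55.4% of all features, with a median of -0.11. The membrane-bound proteases MMP14 and MMP15 were at -0.45 ± 0.11 and -0.28 ± 0.11, and the secreted ADAMTS9 was at 0.31 ± 0.13. Immediate-early genes were split 9 to 9, with ATF3 at -0.24 ± 0.13, NR4A1 at -0.40 ± 0.24 and NR4A2 at -0.15 ± 0.11.

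Markers of other cell types were also present. The summed markers of T and NK cells, macrophages, endothelium, stroma and smooth muscle were lower in PI in pairs 4 and 5. This was not confined to these pairs. The endothelial sum was also lower in PI in pairs 1 and 3, the stromal sum in pair 1 and the smooth muscle sum in pair 3. Of 32 T and NK cell markers 28 were in the file, and their summed level was 457 to 1045 normalized counts in PI and 592 to 1768 in PC, with KLRD1 at 0 throughout. The sum was 1045 in PI4 and 457 in PI5, against 1768 in PC4 and 592 in PC5. In pairs 1 to 3 it was higher in PI, with 902, 942 and 782 in PI1 to PI3, against 835, 704 and 691 in PC1 to PC3. Of 26 markers of monocytes, macrophages and dendritic cells 24 were in the file, with sums of 1062 to 3583 in PI and 1470 to 5060 in PC, and 3583 in PI4 and 1062 in PI5, against 5060 in PC4 and 1470 in PC5. Both sums were thus lower in PI in the pairs in which the MHC class I and interferon-stimulated lists lay lowest. The endothelial, stromal and smooth muscle sums given below were lower in PI in these pairs too. The macrophage sum was also lower in pair 2, with 1617 in PI2 against 1974 in PC2, where the median of the interferon-stimulated list was above 0. The part of these markers in the list results was not tested. Of 19 kept markers of monocytes, macrophages and dendritic cells 15 were below 0 and 4 above, against 55.4% of all features below 0. None was lower in all 5 pairs, against 7.57% of all features. Of 25 kept T and NK cell markers 15 were below 0 (60%) and 10 above, and 1 was lower in all 5 pairs. PTPRC, which marks leukocytes, gave -0.04, 0.45, 0.07, -0.86 and -0.54 over the pairs, and the macrophage genes CSF1R, CYBB and FCER1G had means of -0.35, -0.38 and -0.41. The T cell genes IL2RG, SH2D1A and CD5 gave -0.42, 0.30 and -0.51.

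Endothelial markers, 20 of 22 in the file, summed to 566 to 1914 in PI and 633 to 1816 in PC. The sum was 879 in PI4 and 566 in PI5, against 1184 in PC4 and 633 in PC5. In pairs 1 to 3 it was 1483, 1914 and 701 in PI1 to PI3, against 1572, 1816 and 1091 in PC1 to PC3. Of 19 kept members 15 were below 0 (median -0.28), and in cyclic mares 18 of 19 were (median -0.30). CDH5, the cadherin of endothelial junctions, had 11.7, 14.6, 16.97, 11.7 and 7.09 normalized counts in PI1 to PI5, against 45.2, 6.6, 41.6, 36.8 and 18.8 in PC1 to PC5, with PECAM1 at -0.55 ± 0.28 and ENG at -0.41 ± 0.19. Stromal markers, 22 of 22, summed to 3948 to 10733 in PI and 5248 to 9632 in PC. These sums overlapped those of the secretory cell markers, 8082 to 9518 in PI and 7869 to 9094 in PC. The stromal sum was 6908 in PI4 and 5032 in PI5, against 8354 in PC4 and 5320 in PC5. In pairs 1 to 3 it was 3948, 9044 and 10733 in PI1 to PI3, against 5248, 6823 and 9632 in PC1 to PC3. COL1A1 was at 0.44 ± 0.17, FBLN2 at -0.69 ± 0.20 and POSTN at -0.44 ± 0.19. Smooth muscle markers, 19 of 20, stood at 1498 in PI4 and 1453 in PI5, against 1792 in PC4 and 1492 in PC5. In pairs 1 to 3 they stood at 1729, 1911 and 1518 in PI1 to PI3, against 1679, 1547 and 2982 in PC1 to PC3. Over all libraries they summed to 1453 to 1911 in PI and 1492 to 2982 in PC, with PLN at 0. PC3 was the high library among them, and MYH11, smooth muscle myosin, had 189.8, 161, 305, 206 and 126 normalized counts in PI1 to PI5, against 169, 146, 1380.1, 372 and 132 in PC1 to PC5. B cell markers, 15 of 17, summed to 186 to 232 in PI and 179.6 to 238 in PC, with PAX5 at 0, and in pairs 4 and 5 they stood at 186 in PI4 and 232 in PI5, against 220.4 in PC4 and 179.6 in PC5.

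The difference profiles of pairs 4 and 5 resembled each other. Over the 14692 features, the within-pair differences of pairs 4 and 5 had a Pearson correlation of 0.59 (Spearman 0.62), while the other 9 combinations of pregnant pairs lay between -0.0001 and 0.08. These correlations run across genes of 2 pairs, genes are not independent, and no p is attached. The sign was the same in 75.7% of features, 1192 were below -0.5 in both pairs and 1386 above 0.5 in both. The standard deviation of the differences over features was 0.56 and 0.58 in pairs 4 and 5, against 0.44, 0.43 and 0.36 in pairs 1 to 3. The log2 read ratio was -1.18 in pair 4 and -0.16 in pair 5, the share of ENSECAG00000014226 was 27.8% in PI4 and 1.83% in PI5, against 0.953% in PC4 and 2.78% in PC5, and the mitochondrial share was 2.22% in PI4 and 8.13% in PI5, against 2.49% in PC4 and 7.24% in PC5. The part of these measures, and of the marker sums of leukocytes and other cell types given above, in the resemblance was not tested.

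**Figure D4:**
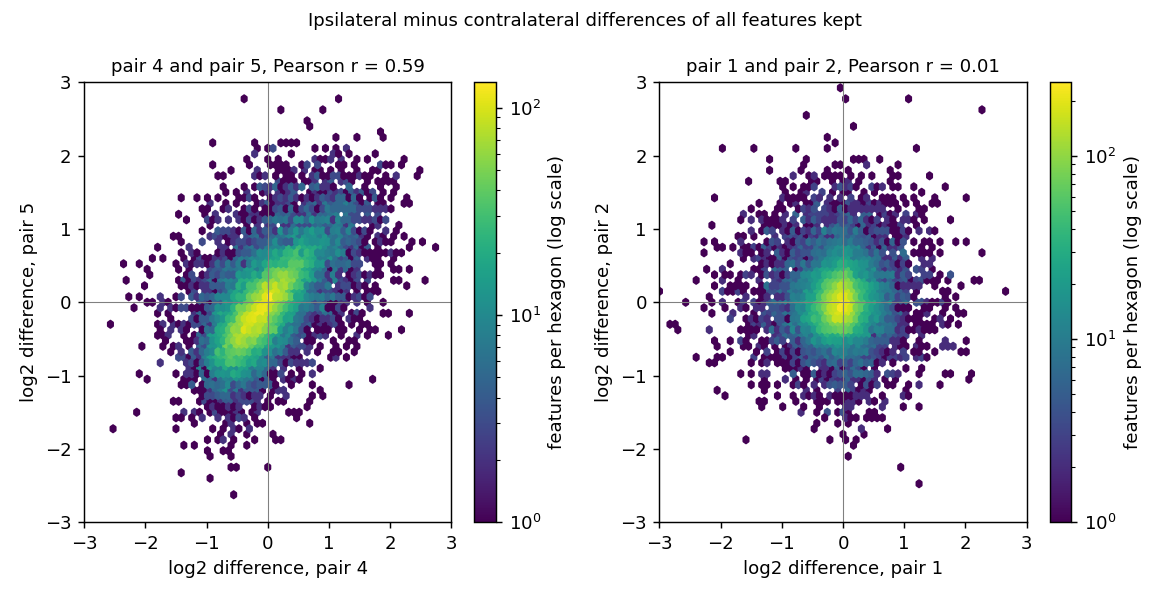
Log2 differences (ipsilateral minus contralateral) of all 14692 features in pair 5 against pair 4 (left) and in pair 2 against pair 1 (right), coloured by the number of features per hexagon. The first 2 pairs run together (r = 0.59), the others do not (r = 0.01).

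Leaving out pairs 4 and 5, a choice made after seeing the data, brought the medians of the lists given here nearer to that of all features, which was then -0.02. The oligosaccharyltransferase list had a median of -0.16, the respiratory chain -0.15, lysosomal hydrolases -0.20 and nutrient transporters -0.18. Proteasome and antioxidant genes came to -0.07 and -0.12, ribosomal proteins to 0.01, MHC class I genes to -0.02 and interferon-stimulated genes to 0.04. Proliferation came to -0.26, with a spread of -0.88 to 0.08 over the 3 remaining pairs. Pairs 4 and 5 had been singled out for their large values, so smaller medians without them are built into that choice. For nutrient transporters the median was -0.17 without pairs 1 and 4, and for proliferation it was -0.26 without pair 2 alone.

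In the remaining 3 pairs 0 features passed in limma and 785 had an unadjusted p under 0.05. The 3 smallest adjusted p belonged to SCGB1A1_1, a copy of the gene of the secreted uteroglobin, to the coagulation factor F5 and to CACNA2D3, at 0.0585, 0.0813 and 0.10. SCGB1A1_1 had 216, 381, 1412, 1198 and 816 normalized counts in PI1 to PI5, against 325, 582, 2239.8, 1061 and 988 in PC1 to PC5. It was lower in PI by a similar factor in pairs 1 to 3, and the log2 differences of pairs 4 and 5 were 0.17 and -0.27. F5 gave -0.78, -0.95, -0.46, 0.06 and 0.20 in pairs 1 to 5, and CACNA2D3 kept its direction in both subsets of pairs.

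In cyclic mares the difference of CI from CC was examined in the same way, and 0 of 14692 features passed (0%) in limma, with 94 at an unadjusted p under 0.05. The sign was the same in all 5 cyclic pairs in 148 features that were lower in CI (1.01%) and 150 that were higher (1.02%). In cyclic mares, libraries of the same number correlated at -0.04 to 0.68, so the numbers were not shown to pair there, and the cyclic differences by pair are given only as values. The test of the difference between the pregnant and the cyclic side difference (limma, 20 libraries) passed for 0 of 14692 features (0%), with 267 at an unadjusted p under 0.05 (1.82%). That count was 1076 without cyclic pair 3, where the smallest adjusted p was 0.637, and 409 without cyclic pair 4, 158 without pregnant pair 5 and 159 without pregnant pair 4. edgeR called 0 features, with 247 at an unadjusted p under 0.05, and DESeq2 0, with 213.

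Proliferation genes mostly lay below 0 on the ovulation side in pregnant mares and above 0 in cyclic mares. Of the 34 members 31 were below 0 in pregnant mares, and 33 were above 0 in cyclic mares, where the median was 0.54 and the pair values were 1.56, 0.72, 0.01, -0.63 and 0.52. For all 34 members the pregnant side difference lay below the cyclic one, against 56.6% of all features. The difference of the differences was below 0 at an unadjusted p under 0.05 in 14 members, against 1.19% of all features, and the median over members was -0.91. The count of 14 rests on the replicate block, which uses cyclic numbers that were not shown to pair: without the block it was 0, against 0.136% of all features. With the block it was 4 without pregnant pairs 4 and 5, against 0.545% of all features. It was 7 without pregnant pair 4 or pair 5 (0.701 and 0.749% of all features). Without pregnant pair 2 or cyclic pair 1 it was 8 (0.967 and 0.796%). It was 9 without cyclic pair 2 or cyclic pair 5 (1.2 and 1.03%). Without cyclic pair 3 it was 24, against 4.55% of all features, and without cyclic pair 4 it was 25, against 1.97%. None of them passed, cyclic pair 3 was near 0 and cyclic pair 4 ran opposite to the others. TOP2A stood at 434 ± 382 normalized counts in PI and 638 ± 628 in PC and at 356 ± 152 normalized counts in CI and 222 ± 95.3 in CC (SD, n = 5), a difference of the log2 differences of -1.31 ± 0.46 (adjusted p close to 1 in limma).

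Genes of the cell cycle were also among those with the smallest p in that test in the negative direction, none of which passed (limma, adjusted p of about 1). UHRF1, which maintains DNA methylation at replication, had a difference of the log2 differences of -0.80 ± 0.19, WDR62, a spindle pole protein, -1.29 ± 0.32, CDCA3, which promotes entry into mitosis, -1.24 ± 0.32, ZNF367 -1.2 ± 0.31 and FGFR4, a fibroblast growth factor receptor, -0.66 ± 0.18. UHRF1 stood at 251 ± 155 normalized counts in PI and 293 ± 181 in PC and at 204 ± 83.7 normalized counts in CI and 137 ± 52.4 in CC (SD, n = 5). In the positive direction the 5 were the calpain CAPN11 (1.43 ± 0.40), PLCXD3 (1.63 ± 0.48), MRFAP1L1 (1.03 ± 0.32), the water channel AQP6 (1.51 ± 0.46) and STK39 (0.55 ± 0.18). CAPN11, PLCXD3 and AQP6 had group means under 10 normalized counts, near the counting floor of several libraries.

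Lists of the secretory and energy machinery had medians nearer to 0 in cyclic mares, with a wide spread over pairs. Their direction was often the same. All 11 oligosaccharyltransferase subunits, 29 of 32 ribosomal protein genes and 21 of 27 lysosomal hydrolases were below 0 in cyclic mares too. The share over all features was 48.6%. The nuclear respiratory chain was more even, with 18 of 30 below 0. The oligosaccharyltransferase list had a median of -0.21 with cyclic pair values of -0.37, -0.19, -1.26, 0.86 and -0.05, and the nuclear respiratory chain -0.04 with -0.28, -0.14, -0.77, 0.90 and 0.01. Cyclic pairs 3 and 4 pointed in opposite directions for these 2 lists, and over all features the differences of the 2 pairs correlated at -0.62. For interferon-stimulated genes the cyclic median was 0.27 with 36 of 37 members above 0, and cyclic pair 1, at 1.57, was far above the others. For no member of the lists named here did the difference between the statuses pass in limma.

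**Figure D5:**
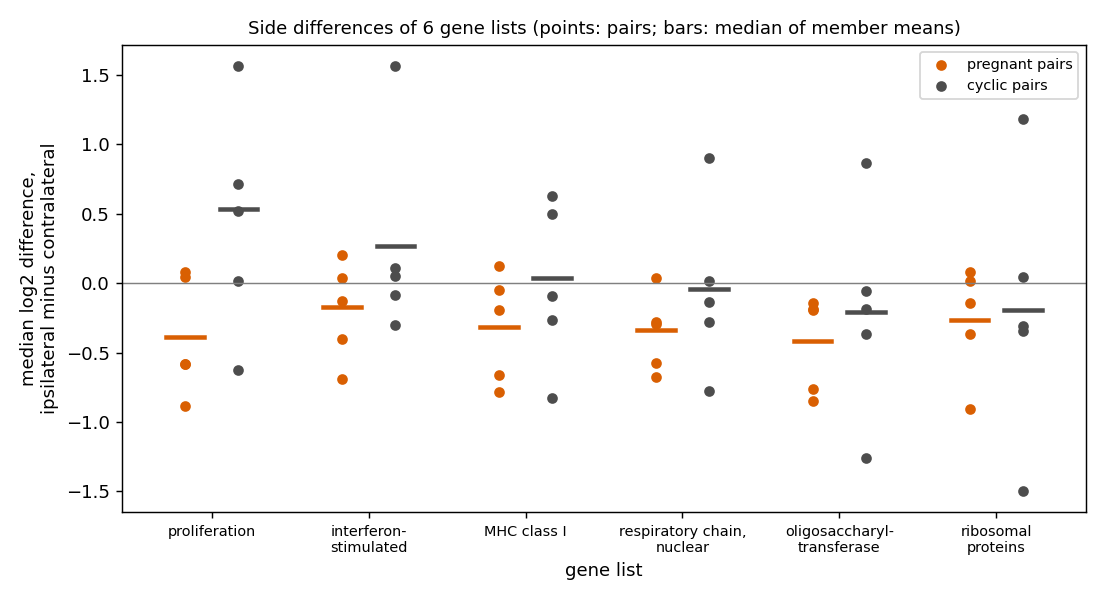
Median log2 difference (ipsilateral minus contralateral, y axis) over the members of 6 gene lists, by pair in pregnant (left of each column) and cyclic mares (right), with a bar at the median of the member means. For proliferation the pregnant bar is at -0.39 and the cyclic bar at 0.54, and the points of the statuses overlap in all 6 lists.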

How the data were processed

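RNA from oviduct epithelium was extracted with DNase digestion and made into stranded libraries after ribosomal RNA depletion, per the labels' protocols, although the molecule field names polyA RNA. CASAVA 1.8 is listed in the submitters' processing notes. For the aligner, counter, strand setting, genome build, annotation and filters nothing is given in the sources used here, so overlapping and antisense genes and genes with near-identical copies are uncertain. The authors deposited TMM-normalized counts per feature, a signal in which each library's reads are multiplied by 1 factor. In each column 100% of the values were whole multiples of the smallest value above 0, within 0.01 reads, and the whole reads were recovered from them.

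Features above 1 CPM of the column total in at least 5 of 20 libraries were kept: 14692 of 26740. These comprised 12430 features named by symbol and 2262 named by Ensembl identifier. Of the symbols 11444 are in the RefSeq gene table used for names. Differences were fitted with limma 3.58.1 (R 4.3.3; trend, robust, 2-sided, Benjamini-Hochberg at 0.05 over all kept features) on log2 of the value plus 0.5 CPM, which is 3.03 normalized counts, with the replicate number as a block. On that scale the differences of low genes are understated. The same fit on 20 libraries with 10 blocks tested the difference between pregnant and cyclic mares. edgeR 4.0.16 and DESeq2 1.42.0 were run on the recovered reads as alternatives, with other pseudocounts, filters and scalings, no block, and pairs left out.

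Pairing was taken from the replicate numbers in the labels: in pregnant mares same-numbered libraries correlated at 0.53 to 0.70, each best with its own number, and in cyclic mares 3 of 5 did. All library pairs compared differed by more than sampling noise, with a chi-square of 4.96 or more per degree of freedom. The labels do not tie a replicate number to 1 mare, and p-values measure the spread between these samples. Floors of 3 reads and 95% intervals cover counting error only.

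Named genes are those with the smallest p (10 in each direction), the 5 in each direction with the largest difference of 1 sign and a mean of at least 5 CPM, up to 3 per list with the smallest p together with members against the list, 18 fixed genes, the 5 in each direction of the test between statuses, and the feature with the most reads. Some genes chosen in this way are not reported here. SCGB1A1_1 and F5 were chosen after their values were seen. The members, the 39 textbook lists and the 12 added ones were chosen with earlier results of these data known. Of the fits, the paired limma fit of the pregnant libraries was tested on simulated data.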

Additional observations from a re-analysis of the deposited data

Results flagged for a closer look

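In 5 results 1 pair stood apart from the other 4 by Dixon's criterion for 5 values, which chance meets in about 1 in 20 groups, so several of the many genes and lists examined are likely to meet it by chance. For IL17RD the log2 difference was -2.72 in pair 1, against -0.82 to -0.10 in the others, and PI1, with the fewest reads, held IL17RD below its counting floor. ATP1B1, a sodium pump subunit, was at 0.082 in pair 1, against -0.40 to -0.26 in the others. CDH5, an endothelial cadherin, was at 0.87 in pair 2, against -1.71 to -1.11 in the other 4. The mesothelial markers, 5 kept of 10 listed, had a median of 0.44 in pair 2, against -0.05 to 0.08. The 13 mitochondrially encoded genes had a median of -0.71 in pair 3, against 0.07 to 0.36.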

How the results depend on the processing

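Between the sides, 0 features passed in the limma fit with the replicate block and 0 in each alternative except the scaling to CPM without TMM, with 1 (GSTM3), and DESeq2, with 2 (CACNA2D3 and KBTBD12). Leaving out 1 pair at a time gave 0 each time, with 884 (without pair 4) to 2567 (without pair 2) features at an unadjusted p under 0.05, against 2106 with all pairs. Without the replicate block, which ignores the pairing, 0 passed and 131 had an unadjusted p under 0.05. With the spread estimated over all 20 libraries that number was 464, and without pairs 1 and 4, whose ipsilateral libraries gave the largest shares of reads to ENSECAG00000014226, 589. The test between pregnant and cyclic mares gave 0 in the alternatives run, and 47 at an unadjusted p under 0.05 without the block.

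Among single genes, signs turned as follows. In the scaling without TMM, which put the median of all features at -0.086, PTGS2 (-0.022), SEC61A2 (-0.00821), ATF4 (-0.022), DDIT3 (-0.032), PLK1 (-0.00877) and CENPE (-0.031) turned below 0. Without pairs 1 and 4, PTGS2 (-0.25), CENPE (-0.057) and NLRC5 (-0.15) did so. Without pairs 4 and 5, chosen after seeing the data, OVGP1 (-0.090), PAX8 (-0.053), SEC61A2 (-0.26), DDIT3 (-0.040), TRIB3 (-0.11) and PLK1 (-0.23) turned below 0 and CD74 (0.027), B2M (0.011), ISG15 (0.18) and PTPRC (0.16) above 0. With single pairs left out, the difference ranged from -0.19 to 0.20 for PTGS2, -0.092 to 0.45 for PTGES, -0.076 to 0.11 for CENPE, -0.10 to 0.13 for DDIT3, -0.089 to 0.18 for PLK1, -0.15 to 0.16 for SEC61A2, -0.056 to 0.21 for TRIB3, -0.20 to 9.88e-06 for CD74 and -0.31 to 0.063 for ISG15. The median changed sign under at least 1 alternative in 15 of 51 lists, among them mitochondrially encoded genes (down to -0.15), T and NK cell markers (up to 0.24), stromal markers (up to 0.15), interferon-stimulated genes (up to 0.04), ribosomal proteins (up to 0.0094), and multiciliated and secretory markers. Of the list medians under alternatives 907 stayed within the spread between pairs and 10 moved beyond it. The alternatives used the same pairs or a subset of them, so this count says little about robustness. The causes of the changes were not tested. The depth limits OVGP1, PTGES, CTSL and other genes near the floor of 3 reads.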

Other observations

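Some marker lists belong to no comparison above. Of 10 mesothelial markers 9 were in the file, with sums of 1944 to 3034 normalized counts in PI and 1844 to 3146 in PC and CALB2 at 0, and most of that level came from WT1, which oviduct epithelium also expresses, at 2262 ± 492 normalized counts in PI and 2079 ± 564 in PC (SD, n = 5). LRRN4, a further mesothelial marker, stood at 7.95 ± 4.43 normalized counts in PI and 2.36 ± 0.565 in PC, under the counting floor in several libraries. Of 19 markers of granulosa, luteal and cumulus cells 12 were in the file, with sums of 98.97 to 145 in PI and 78.9 to 178 in PC and FSHR, INSL3 and PTX3 at 0, and STAR, which brings cholesterol into mitochondria for steroid synthesis, was at 50.3 ± 6.7 normalized counts in PI and 38.6 ± 15.3 in PC. Of 14 nerve markers all 14 were in the file, with sums of 238 to 658 in PI and 262 to 645 in PC. Erythrocyte markers, 6 of 10 in the file, summed to 8.27 to 17.8 in PI and 4.09 to 16.1 in PC. Markers of neutrophils and mast cells, 5 of 14 in the file, summed to 9.33 to 52.0 in PI and 15.5 to 85.3 in PC. Markers of uterine glands, 4 of 8 in the file, summed to 127 to 329.6 in PI and 157 to 293 in PC, with SPINK7 at 0.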
